A study of Homo sapiens with 2 samples.

Results

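The genes examined here carry, make, clear or respond to retinoic acid, the hormone-like derivative of vitamin A. They comprise the nuclear receptors RARB, RARG and RXRA, the carrier CRABP2, the enzymes ALDH1A3 and DHRS3, and the retinoic acid-responsive genes RARRES1 and PLAAT4, which the array lists under its older symbol RARRES3. Members were the probes whose gene symbol in the deposited table is exactly one of these names, which gave 14 probes for 8 genes out of 30968 probes and 18454 singly named genes. Expression was compared between cells of HaCaT, a human epidermal keratinocyte line that became immortal spontaneously in culture, kept in arsenic trioxide at 0.5 µg/ml to passage 22 (exposed) and HaCaT cells taken to passage 22 without it (passage control). Both were grown in serum-containing DMEM, and the labels name no added retinoid in either group. Per the design text, 4 RNA preparations of each group, described as technical replicates, were run on 3 arrays each, giving 24 Cy5-labelled arrays. For each group the authors' table gives a single intensity with a single error at every probe, so each group is 1 value from 1 culture line, and an effect of arsenic cannot be told apart from divergence between the lines.

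Retinol taken up by cells is oxidised to retinaldehyde and then, by aldehyde dehydrogenases such as ALDH1A3, to retinoic acid. DHRS3 works against this flow by reducing retinaldehyde back to retinol. CRABP2 hands retinoic acid to retinoic acid receptors (RARA, RARB, RARG), which bind DNA as heterodimers with a retinoid X receptor (RXRA, RXRB, RXRG) and recruit corepressors or coactivators depending on ligand. In skin, RARG and RXRA are the main pair, retinoic acid holds back terminal cornification, and RARB, CRABP2, DHRS3, RARRES1 and PLAAT4 are known as genes that retinoic acid induces. Arsenic trioxide and retinoic acid are used together against acute promyelocytic leukaemia, where they act on different ends of the fusion protein of PML and RARA.

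The DNA element that these receptors bind is a direct repeat of a short half-site, and promoter windows of RARB, the receptor gene used as the classical reporter of retinoic acid, of the called members CRABP2 and RXRA, and of DHRS3, which was not called, are shown for this reason. Each window printed was picked because it holds at least 1 half-site. Sequences are those of RefSeq on GRCh38.p14, from 250 bases before to 50 bases from an annotated start on, read 5′ to 3′ on the gene's strand. Capitals mark half-sites, spelled as AGGTCA or with other letters as AGTTCA or else GGGTCA or finally GGTTCA, searched on both strands with overlaps allowed.
RARB, chr3:25428013-25428312, plus strand: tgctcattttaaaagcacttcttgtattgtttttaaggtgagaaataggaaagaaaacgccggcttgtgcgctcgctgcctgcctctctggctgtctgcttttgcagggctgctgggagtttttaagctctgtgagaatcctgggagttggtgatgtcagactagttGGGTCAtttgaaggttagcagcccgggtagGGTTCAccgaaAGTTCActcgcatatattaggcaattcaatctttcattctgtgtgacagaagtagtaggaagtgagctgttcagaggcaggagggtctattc
CRABP2, chr1:156705735-156706034, minus strand: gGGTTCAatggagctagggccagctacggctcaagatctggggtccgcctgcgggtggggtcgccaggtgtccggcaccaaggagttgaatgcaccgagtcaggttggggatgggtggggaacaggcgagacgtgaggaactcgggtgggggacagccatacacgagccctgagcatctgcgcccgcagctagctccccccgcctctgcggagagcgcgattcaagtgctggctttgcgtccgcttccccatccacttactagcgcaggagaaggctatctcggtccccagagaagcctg
RXRA, chr9:134379045-134379344, plus strand: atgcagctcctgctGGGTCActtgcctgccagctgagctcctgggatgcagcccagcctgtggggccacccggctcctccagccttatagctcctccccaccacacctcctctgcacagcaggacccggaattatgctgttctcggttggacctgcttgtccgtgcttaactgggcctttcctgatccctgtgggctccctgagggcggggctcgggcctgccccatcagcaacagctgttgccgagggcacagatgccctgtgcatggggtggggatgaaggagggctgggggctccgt
DHRS3, chr1:12616740-12617039, minus strand: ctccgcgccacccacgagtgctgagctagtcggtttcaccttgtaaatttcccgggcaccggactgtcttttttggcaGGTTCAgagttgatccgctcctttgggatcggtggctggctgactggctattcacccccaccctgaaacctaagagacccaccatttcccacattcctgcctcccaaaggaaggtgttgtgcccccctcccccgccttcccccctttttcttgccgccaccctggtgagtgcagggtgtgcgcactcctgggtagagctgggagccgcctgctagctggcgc

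The RARB window holds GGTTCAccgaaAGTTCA, 2 half-sites in direct repeat with a spacer of 5 bases, from -53 to -37 relative to the annotated start. This is the known retinoic acid response element of the gene. Of 35116 windows of this length in the RefSeq table, 31 (0.0883%) hold such a repeat with these letters. A table window was found for 7 members, all but PLAAT4, with 13 windows in all, and no other member window held a direct repeat with a spacer of 1, 2 or 5 bases. At least 1 half-site was found in 7 of the 13 member windows, against 38.6% of all windows, so a lone half-site as in CRABP2, RXRA and DHRS3 is common. These matches describe letters and show nothing about binding in HaCaT cells.

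All 6 members that were measured were lower in exposed cells, and 3 of them fell by the call used here: PLAAT4 by 2.41-fold, RXRA by 1.70-fold and CRABP2 by 1.39-fold. RARG, ALDH1A3 and DHRS3 had ratios of much the same size as CRABP2 and were not called. RARB and RARRES1 were detected in neither group. A probe counted as detected where its deposited detection p was below 0.05. Levels are the authors' normalized intensities on a linear scale, and the value after ± beside an intensity is the error the authors gave with it, of unstated basis (no SD over replicates can be had). Exposed cells had lower intensities throughout the array, with a median log2 ratio of -0.43 among 9915 probes that both groups detected, so log2 ratios (exposed over passage control) and fold changes are given relative to that median unless stated. A gene was called where the p-value of the comparison in the authors' deposited table, after Benjamini-Hochberg adjustment across 7691 genes, was below 0.05. Of these genes 2.56% were called lower and 3.13% higher. Members were chosen with earlier results of these data known, so their counts and median here describe and do not test. The 3 of 6 members called lower stand beside that 2.56%. At an unadjusted deposited p below 0.05, 5 of the 6 were lower, beside 6.41% of all genes. All 6 lay below 0, as did 49% of all genes, and their median log2 ratio was -0.54 against 0.0053 for all measured genes. Fewer transcripts in every cell and fewer cells that express a gene cannot be told apart in such bulk RNA.

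**Figure D1:**
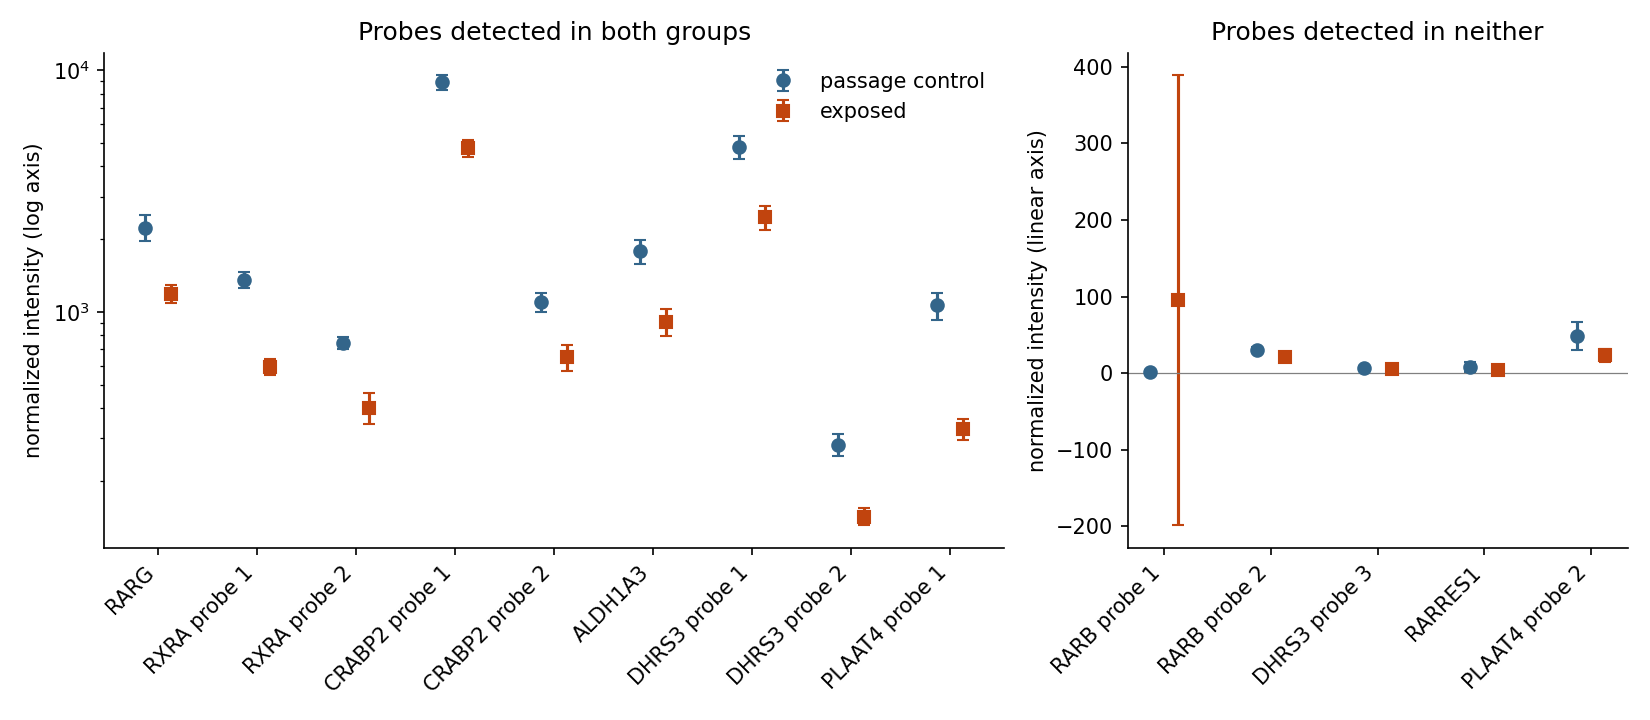
Normalized intensity of each of the 14 member probes in the passage control (circles) and exposed cells (squares), with bars for the deposited error, on a log axis for the 9 probes detected in both groups and on a linear axis for the 5 detected in neither. In each of the 9 detected probes the exposed value lies below the control value without overlap of the error bars. The same holds for 69.7% of all probes detected in both groups, since intensities were lower across the array. The first RARB probe has an exposed error of 294 around an intensity of 95.0.

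Among the receptors, RXRA (chromosome 9) is the common partner of the retinoic acid, vitamin D and other nuclear receptors in keratinocytes. Its brighter probe read 593 ± 47.3 in exposed cells and 1356 ± 100.1 in the passage control. The ranges set by these errors do not overlap. This holds for all 9 detected member probes, but also for 69.7% of all probes detected in both groups, and intensities were lower across the array. The log2 ratio was -0.76 ± 0.16, where the error is propagated from both deposited errors, at place 115 from the lowest of 7701 measured genes. The p-value of the authors' deposited table gave an adjusted p of 0.000248. The second RXRA probe read 401 ± 58.6 in exposed and 746 ± 40.8 in the passage control, a log2 ratio of -0.46 ± 0.23. Both probes were thus lower, by amounts that differed by 0.30 with a propagated error of 0.27. The second probe did not pass on its own, with an adjusted p of 0.0662 over all measured probes from the p in the authors' deposited table, where 2.14% of probes were called lower.

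RARG (chromosome 12), the main retinoic acid receptor of epidermis, read 1186 ± 100.5 in exposed cells and 2234 ± 275 in the passage control. Its log2 ratio of -0.48 ± 0.22 was 2.25 times its propagated error. It was not called, with a p of 0.0530 in the authors' deposited table and an adjusted p of 0.381. The ratios of RXRA and RARG differed by 0.28 with a propagated error of 0.27, so the data do not order these receptors.

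RARB (chromosome 3), whose promoter carries the repeat printed above, was not detected by either of its probes. One probe read 20.6 ± 4.22 in exposed and 30.5 ± 3.18 in the passage control. The other read 1.49 ± 2.31 in the passage control but 95.0 ± 294 in exposed cells, where its detection p was 0.423. That error is 3.09 times the intensity. Of the 10890 probes that read above 54.4 in exposed cells, the lowest intensity among detected probes there, 13 had an error above the intensity and this probe alone had one above 3 times the intensity. No ratio is given for RARB, and its state in HaCaT cells can be described only as below detection in both groups.

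CRABP2 (chromosome 1), the cytosolic protein that delivers retinoic acid to the receptors, was read by a pair of probes. The brighter read 4762 ± 401 in exposed cells and 8897 ± 612 in the passage control. The log2 ratio was -0.47 ± 0.16 and the adjusted p, from the authors' deposited table, was 0.000461. The dimmer probe read 648 ± 78.6 in exposed and 1095 ± 98.4 in the passage control, a log2 ratio of -0.33 ± 0.22. This probe was lower as well but was not called on its own, with a p of 0.245 in the authors' deposited table. The ratios of both probes differed by 0.15, within the propagated error of 0.27.

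**Figure D2:**
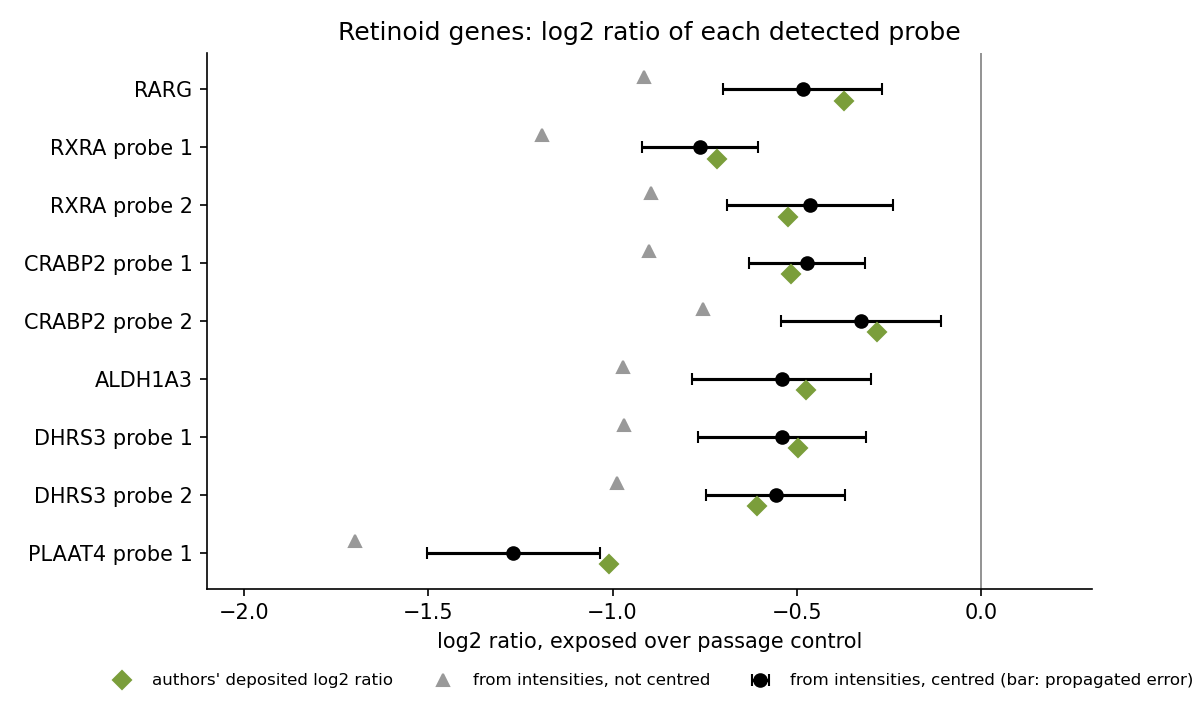
Log2 ratio of exposed over passage control for the 9 detected member probes: black points are ratios of the deposited intensities centred on the array median with bars for the propagated error, grey triangles the same ratios without centring, and green diamonds the ratio in the authors' deposited table. Every marker lies below 0, from -0.28 for the dimmer CRABP2 probe in the deposited table to -1.70 for PLAAT4 without centring.

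The enzymes that make retinoic acid and that take its precursor away had nearly equal ratios. ALDH1A3 (chromosome 15), a retinaldehyde dehydrogenase, read 912 ± 113.9 in exposed cells and 1787 ± 204 in the passage control. Its log2 ratio was -0.54 ± 0.24, with a p of 0.0244 in the authors' deposited table and an adjusted p of 0.240. DHRS3 (chromosome 1), the retinaldehyde reductase, read 2459 ± 278 in exposed and 4816 ± 531 in the passage control by its brightest probe. Its log2 ratio was -0.54 ± 0.23, with a p of 0.0135 in the authors' deposited table and an adjusted p of 0.161. A dimmer DHRS3 probe, at 142.4 ± 11.4 against 282 ± 28.9, gave -0.56 ± 0.19. Those ratios differed by 0.018, while one more DHRS3 probe, at 5.78 and 6.21, was detected in neither group. Neither enzyme was called, although both ratios exceeded the called one of CRABP2 in size. Their propagated errors were larger, but the deposited p does not simply follow the ratio over that error. The dimmer DHRS3 probe, at 2.97 times its error, had a p of 0.0153 in the authors' deposited table. There the brighter CRABP2 probe, at 3.01 times its error, had a p of 9.05e-06.

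Of the genes named for their response to retinoids, PLAAT4 (chromosome 11), a phospholipase A and acyltransferase family member known as a growth suppressor in keratinocytes, had the lowest ratio of all members. It read 328 ± 32.4 in exposed cells and 1064 ± 137.4 in the passage control. The log2 ratio was -1.27 ± 0.23, at place 25 from the lowest of 7701 measured genes. In the authors' deposited table its log2 ratio was -1.01, and the adjusted p was 0.0307. The PLAAT4 ratio was below that of RXRA by 0.51 with a propagated error of 0.28. A second PLAAT4 probe, at 23.1 ± 8.01 in exposed and 49.0 ± 18.4 in the passage control, was detected in neither group. RARRES1 (chromosome 3), which encodes a membrane protein induced by the retinoid tazarotene in skin, had 1 probe. It read 4.64 ± 3.12 in exposed and 7.88 ± 6.41 in the passage control and was detected in neither.

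The authors' deposited table has its own log2 ratio, which is not the plain ratio of the intensities and has a median near 0 without further centring. In the authors' deposited table all 6 measured members also lay below 0, at -0.72 for RXRA, -0.52 for CRABP2, -0.50 for DHRS3, -0.48 for ALDH1A3 and -0.37 for RARG, with a median of -0.51. Ranked from the lowest of 7691 genes on that scale, PLAAT4 stood at place 35, RXRA at 102, CRABP2 at 260 and RARG at 570. By the centred intensities the members took places 25 (PLAAT4), 115 (RXRA), 327 (ALDH1A3), 332 (DHRS3), 436 (RARG) and 472 (CRABP2) of 7701. CRABP2 thus came last of the measured members by the intensities, but only PLAAT4 and RXRA preceded it by the deposited ratio.

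**Figure D3:**
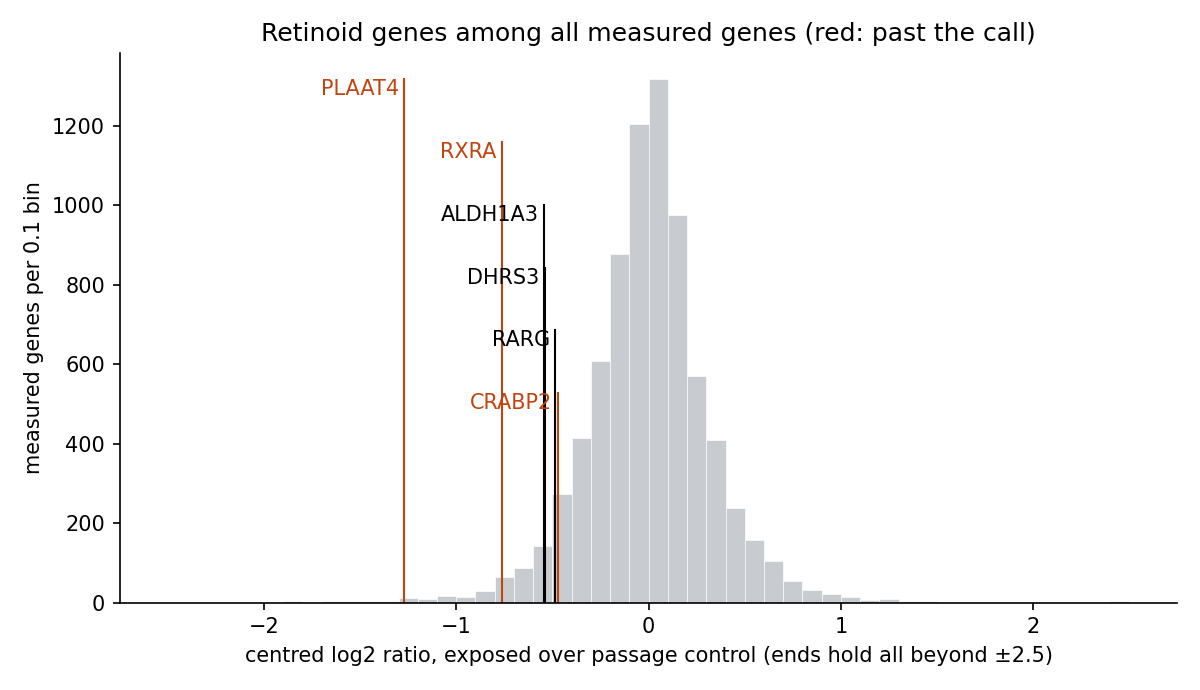
Distribution of the centred log2 ratio over 7701 measured genes (grey bars, genes per bin) with the 6 measured members as vertical lines, red where called. The members lie between -1.27 and -0.47 on the lower flank, and line height has no meaning.

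Other pathway genes, pooled with known targets that retinoic acid induces or lowers, showed no shift of that size as a group. The 7 lists written for them hold 86 genes, of which 75 had a probe of their own and 39 were measured. Of the 39, 4 were called higher and 1 lower, 25 lay below 0, and the median log2 ratio was -0.11. Over all genes 3.13% were called higher, 2.56% were called lower and 49% lay below 0. The lists and the members were chosen with earlier results of these data known, so their counts describe and do not test.

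Among the other receptors and coregulators 8 of 10 measured genes lay below 0, with a median of -0.20, and 1 was called, on the higher side. RARA, the receptor fused to PML in promyelocytic leukaemia, read 59.7 ± 7.25 in exposed and 110 ± 13.6 in the passage control, close to the lowest detected intensities of 54.4 and 81.7. Its log2 ratio was -0.45 ± 0.25, which differed from that of RARG by 0.034 with a propagated error of 0.33, but the authors' deposited table gave -0.20. RXRB had a log2 ratio of -0.43 ± 0.25, which lay above that of RXRA by 0.33 with a propagated error of 0.30. RXRG had 0.09 ± 0.38, and -0.34 without centring. None of these receptors was called. NCOA3, a coactivator, had -0.35 ± 0.25 and was not called. TNIP1, an inhibitor of NF-kB signalling that also represses liganded retinoic acid receptors, rose from 846 ± 45.6 to 937 ± 58.3. Its log2 ratio was 0.58 ± 0.12 and its adjusted p, from the authors' deposited table, was 0.00280.

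Genes of retinoid uptake and storage were mostly below detection. CRABP1 and STRA6, which encode another retinoic acid carrier and the receptor for circulating retinol-binding protein, were detected in neither group, as was LRAT, the retinol-esterifying enzyme. SCARB1, a scavenger receptor that takes up carotenoids, was the only measured gene of its list. One of its measured probes had a log2 ratio of -0.31 ± 0.21 and the other 0.35, neither called, so they disagree in direction. The retinol-esterifying DGAT1 had 0.03 ± 0.15, the lipase gene PNPLA4 -0.03 ± 0.16, and PLAAT3, a family relative of PLAAT4, 0.07 ± 0.11 by its brighter probe. The PLAAT4 ratio was below that of this PLAAT3 probe by 1.34 with a propagated error of 0.26. A dimmer PLAAT3 probe had a log2 ratio of -0.63 and was not called. In the authors' deposited table both PLAAT3 probes lay below 0, at -0.069 for the brighter and -0.43 for the dimmer. The size of the gap to PLAAT4 depends on the probe used.

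Among retinol and retinaldehyde oxidoreductases AKR1C3, which can reduce retinaldehyde besides steroids and prostaglandins, was called higher. Its log2 ratio was 3.68 ± 0.20 by the brighter of 2 measured probes and 3.33 by the dimmer. AKR1C genes are near-identical in sequence, and whether either probe reads AKR1C3 alone was not tested. The other 4 measured genes were not called and lay near 0. RDH10, the retinol dehydrogenase of the first oxidation step, had -0.20 ± 0.15, RDH14 had -0.11 ± 0.10, SDR16C5 had 0.10 ± 0.17 and RDH13 had 0.14 ± 0.21. None of the 6 measured genes of retinoic acid synthesis, clearance and carotenoid cleavage was called. CYP1B1, a P450 that can oxidise retinol, had the lowest ratio, at -1.86 ± 0.43 with an adjusted p of 0.253 from the authors' deposited table. CYP2S1 had 0.11 ± 0.21 and the carotenoid-cleaving BCO2 had -0.01 ± 0.18. ALDH1A1 and CYP26A1, each detected in the passage control alone, are named after their values were seen. ALDH1A1, a retinaldehyde dehydrogenase gene like ALDH1A3, read 106.6 ± 19.2 in the passage control and 33.3 ± 8.11 in exposed cells. It was at least 1.45-fold lower, a bound of -0.54 on the log2 scale, and not called. CYP26A1 encodes the enzyme that clears retinoic acid and is itself strongly induced by it. It read 115.2 ± 26.1 in the passage control and 58.8 ± 14.3 in exposed cells, where it was not detected. That undetected reading lay above the lowest detected intensity of 54.4 and was itself used for the ratio. By it CYP26A1 was 1.45-fold lower, which is not a strict bound, and it was not called. The log2 ratio of CYP26A1 in the authors' deposited table was -0.37. CYP26B1 and CYP26C1 were detected in neither group.

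**Figure D4:**
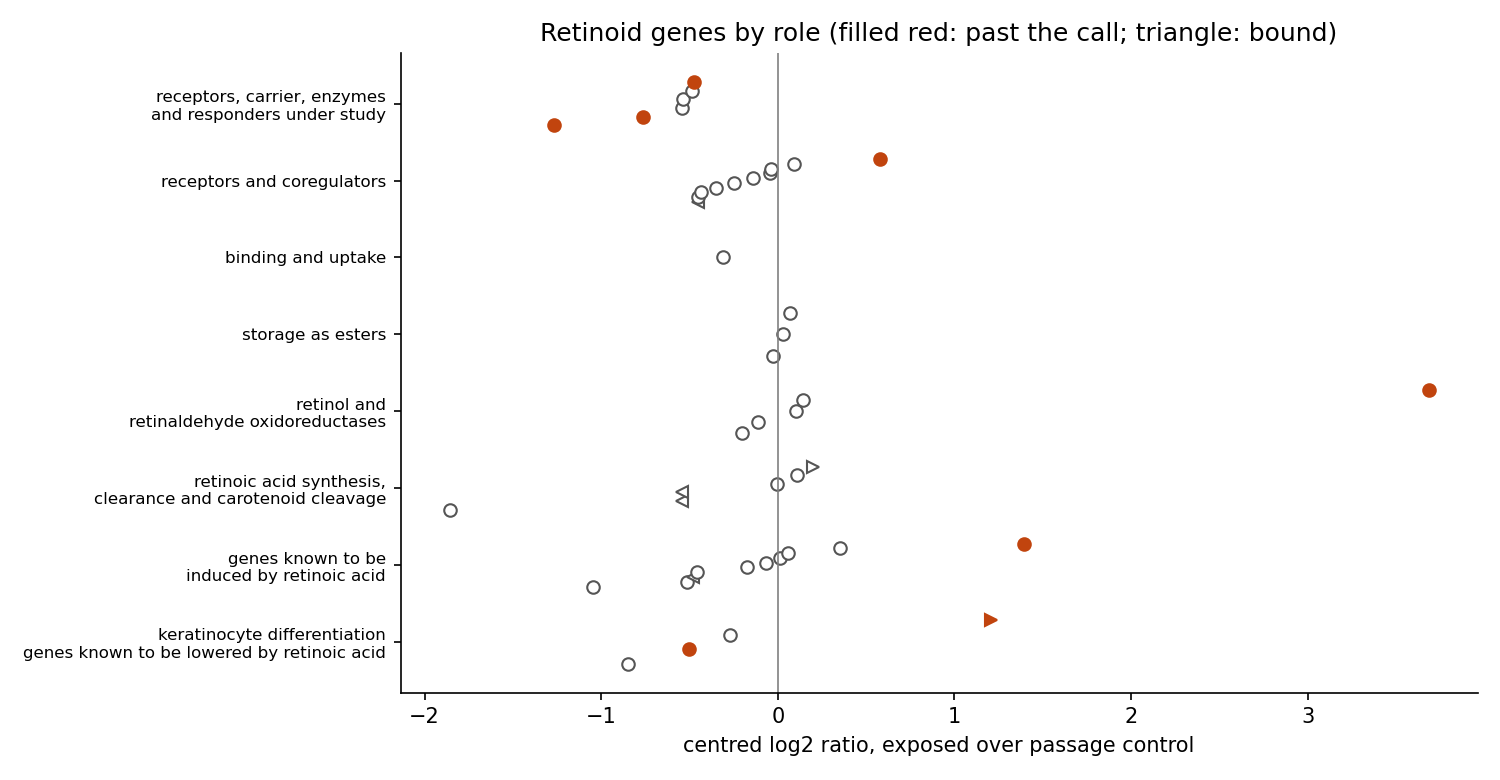
Centred log2 ratio of exposed over passage control for the 6 measured members (top) and the 39 other measured retinoid genes by role, filled red where called and drawn as a triangle where the value is a bound. All members lie below 0, whereas most other lists spread to both sides and AKR1C3 stands apart at 3.68.

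Genes that retinoic acid is known to induce in various cells went both ways, with 4 above and 6 below 0 of 10 measured, a median of -0.12 and 1 called. ICAM1, an adhesion receptor that NF-kB also induces, rose 2.63-fold, from 344 ± 23.8 to 671 ± 65.0. KRT4, a keratin of moist epithelia, had a log2 ratio of -1.05 ± 0.33 and was not called. IGFBP3, an IGF-binding protein gene, had -0.52 ± 0.39, and MEIS2, a homeobox gene, had -0.46 ± 0.25, neither called. Of 4 measured differentiation genes that retinoic acid is known to lower, 1 rose, 1 fell and 2 were not called. FLG, which encodes filaggrin, was called higher, its probe being below detection in the passage control. By the centred intensities it rose at least 2.31-fold, with the lowest detected intensity put in for the passage control. In the authors' deposited table its log2 ratio was smaller, at 1.09. TGM1, which encodes the crosslinking enzyme of the cornified envelope, fell with a log2 ratio of -0.50 ± 0.13 and an adjusted p of 0.0324 from the authors' deposited table. IVL, the involucrin gene, had -0.85 ± 0.34 and KRT10 -0.27 ± 0.16.

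Most keratinocyte markers with a probe were detected in both groups. Of 12 such genes 10 had a probe of their own and 8 were measured. None was called and their median log2 ratio was -0.07. DSC3 and LAMB3 had a probe but were detected in neither group. KRT5 read 30404 in exposed and 40026 in the passage control, a log2 ratio of 0.03 ± 0.10 relative to the array median. Few markers of other cells were measured, with 1 of 8 for melanocytes, 4 of 10 for fibroblasts, 4 of 10 for leukocytes and 1 of 6 for endothelium. The fibroblast genes COL1A1, LUM and PDGFRB and the leukocyte genes CD14, CD68, HLA-DRA and CD79A were detected in both groups, whereas VIM, PTPRC, CD3E and LYZ were detected in neither. CD14 was the only one of these markers called, lower with a log2 ratio of -0.70 ± 0.18. HLA-DRA, a class II antigen presentation gene, read 355 ± 46.3 in exposed cells and 926 ± 132.7 in the passage control, with a log2 ratio of -0.95 ± 0.28, and was not called at an adjusted p of 0.106 from the authors' deposited table. The part of these markers in the results above was not tested.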

How the data were processed

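The arrays measured RNA of exposed and passage control HaCaT cells. The authors deposited normalized, linear intensities, 1 for each group at every probe, each beside an error in intensity units. The method of normalization is not given in the sources used here. The authors also deposited a detection p-value per group, a log2 ratio and a p-value of the comparison, whose test is not stated. The intensities were deposited again elsewhere, equal to within 5e-07. No spread between the 24 arrays could be fitted, so no test was computed here. Inference is limited by having 1 culture line per group, and not only by how many arrays were run. The deposited p-values, adjusted over 7691 genes, measure at most the spread between technical preparations.

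Current symbols were looked up by gene identifier in the RefSeq table of GRCh38.p14. They matched for 19793 of 22935 probes with 1 symbol, and 2623 without a match and 519 matching another gene kept the file's symbol. Each gene was represented by its measured probe with the highest mean intensity. A gene detected in 1 group alone was given a bound where that group was brighter: the lowest detected intensity stood in for the other group unless its own value was greater. In that last case the bound is only the ratio to an undetected reading. Of 7701 measured genes 452 had a bound. Named were all members, every called gene of the lists, up to 3 further genes per list with the largest ratios among those detected in both groups, and RARA. SDR16C5, RXRG, ALDH1A1, CYP26A1, markers and genes below detection are named outside this rule, after their values were seen. Members and lists were chosen with earlier results of these data known. Calculations used Python 3.11.15, numpy 2.4.6 and pandas 2.3.3 and were checked on simulated data.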

Additional observations from a re-analysis of the deposited data

Results flagged for a closer look

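A probe shared by several aldo-keto reductase genes (AKR1C3 with AKR1C1, AKR1C2 and AKR1C4), and so outside the comparison by gene, carried signal above the passage control. It read 2093 ± 131.4 in exposed and 479 ± 45.2 in the passage control, a log2 ratio of 2.56 ± 0.16.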

How the results depend on the processing

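All 6 measured members stayed below 0 under each of 12 alternatives, which changed centring, normalization, the ratio used, offset, probe choice, detection limit, adjustment, level filter or fold limit. Changes of adjustment, level filter and fold limit leave a ratio as it is, and leaving out centring lowers every ratio. These alternatives could not have turned a member's sign. RXRA, PLAAT4 and CRABP2 kept their calls except in 3 cases. With the dimmest measured probe, an alternative chosen after the data were examined, RXRA stood at -0.46 (adjusted p 0.0610) and CRABP2 at -0.33 (adjusted p 0.882), which left 1 member called lower. With a 1.5-fold limit CRABP2, at -0.47, was not called, since its fold change is smaller than that, and for the same reason TNIP1 and TGM1 were not. PLAAT4 kept its call with adjusted p between 0.0190 and 0.0387. RARG, ALDH1A3 and DHRS3 were called under none. Each alternative reused the deposited p-values, so a call could change only through the set adjusted over, the sign, the probe or the fold limit. For PLAAT4, RARG and ALDH1A3, with 1 measured probe each, the choice of probe changed nothing. A kept call is therefore no independent check. The 1.5-fold limit left 130 genes called higher and 96 lower over the array. Of the other retinoid genes 0 were called lower under that limit, and 0 when only genes above the median level were tested. Among other retinoid genes named with a ratio, 15 values changed sign, all of genes that were not called. Without centring these were PLAAT3 (-0.36), DGAT1 (-0.40), RDH13 (-0.29), CYP2S1 (-0.32), RXRG (-0.34) and SDR16C5 (-0.33). DGAT1 (-0.016) and BCO2 (0.048) turned with the offset of 32, and BCO2 also with each group's own median (0.014) and quantile normalization (0.020). PLAAT3 turned with the deposited log2 ratio (-0.069), the mean of all probes (-0.28) and the dimmest probe (-0.63), and SCARB1 with the last of these (0.35) and the mean (0.017). No paired analysis was possible because each group has 1 combined value, and for the same reason no replicate could be left out. Probes near the lowest detected intensities, such as those of RARA and CYP26A1, limit what can be said of these genes.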

Other observations

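Genes of 2 epithelial proteins that retinoic acid is known to induce had no probe of their own, but probes shared with other names were lower in exposed cells. A probe that names KRT19, a simple epithelial keratin gene, with 2 clone-based names read 11245 ± 680 in exposed and 20272 ± 1424 in the passage control. Its log2 ratio was -0.42 ± 0.13, with an adjusted p of 0.000752 over all measured probes from the authors' deposited table. A probe that names CEACAM5 and CEACAM6, which encode cell surface adhesion proteins, read 666 ± 39.6 and 1362 ± 94.4. Its log2 ratio was -0.60 ± 0.13, with an adjusted p of 0.000537 from the authors' deposited table. Of all measured probes 2.14% were called lower. A probe that names AKR1B1 with another name had a log2 ratio of 0.16 ± 0.27 and was not called. These shared probes lie outside the counts by gene given above. Which transcript each probe measured was not tested.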
